A study of Mus musculus with 2 samples.

Results

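Natural killer cells were examined in droplet single-cell RNA libraries of immune cells from mouse lymph nodes, 1 library of wild-type (WT) and 1 of RPA1 conditional knockout (CKO) mice of the C57BL/6 strain. Natural killer cells were selected on the measured counts of 5 genes: a cell had to hold 2 or more unique molecular identifiers (UMIs, each a counted RNA molecule) of Ncr1 and Klrb1c together and none of Cd3e, Cd79a or Ms4a1. Cells were kept for this when they had 500 UMIs and 200 genes or more and no more than 10% of UMIs from mitochondrial genes. The rule found 78 natural killer cells among 12463 kept WT cells and 219 among 13316 kept CKO cells. RPA1 is the large subunit of replication protein A, which protects unwound DNA strands when DNA is copied or mended. The deleted exons, the recombinase and the cells it acts in, the age of the mice and the number of mice or nodes in a library are not given in the sources used here. With 1 library a group there was no test, so every interval below is a 95% interval for counting error alone, and differences between mice cannot be told apart from differences between genotypes.

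Natural killer cells are innate lymphocytes that kill infected or altered cells without a rearranged antigen receptor. Activating receptors such as NKp46 and NKG2D are weighed against inhibitory receptors that read MHC class I, and the outcome decides whether granules with perforin and granzymes are released. They mature from a CD27-high stage, rich in lymph nodes and chemokine genes, to a CD11b-high stage, and they respond strongly to interferons and interleukin-15.

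The libraries held 12769 WT and 13754 CKO barcodes, with 84813609 and 76200586 UMIs and medians of 5984 and 4549 UMIs per barcode. Of the barcodes, 306 and 437 exceeded the mitochondrial limit. The libraries had 56 barcode sequences in common, and 1 CKO natural killer barcode was also present in WT, in a cell outside the rule. Natural killer cells were of nearly equal depth, with medians of 5206 UMIs and 2082 genes in WT and 5369 UMIs and 2088 genes in CKO, or 458368 and 1326969 UMIs in all. A gene's level is given as its CPM, the UMIs of the gene scaled to the total UMIs of the natural killer cells of a library (counts per 1000000).

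Natural killer cells made up 0.626% of kept WT cells (interval 0.495 to 0.780) and 1.64% of kept CKO cells (1.44 to 1.88), a ratio of 2.63. The other cells of the libraries also differed in number, so the share depends on what it is set against. B cells, taken as cells with at least 2 Cd79a UMIs, numbered 2818 in WT and 7776 in CKO. T cells, taken as cells with at least 2 Cd3e UMIs and none of Ncr1 and Klrb1c, numbered 6628 and 2746. Outside the B cell gate the share of natural killer cells was 0.809% (0.640 to 1.01) in WT and 3.95% (3.46 to 4.50) in CKO. Among natural killer and T cells together it was 1.16% (0.920 to 1.45) and 7.39% (6.47 to 8.39). A share cannot say which cells became more or fewer in a node.

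The limit on Ncr1 and Klrb1c fell in a sparse range of cells. Cells with 4 or more of these UMIs numbered 76 in WT and 202 in CKO, and 43 and 87 cells had at least 10. Just inside the limit, at 2 or 3 UMIs, stood 2 WT and 17 CKO cells. The CKO cells carried Klre1 at 997 CPM, Gzma at 5513 CPM and Tyrobp at 2387 CPM. The 2 WT cells had no Klre1 or Eomes UMI, and carried Gzma at 138 CPM, Tyrobp at 757 CPM and Trdc at 825 CPM. Just outside it, at 1 UMI, stood 1 WT and 9 CKO cells, and these CKO cells carried Klre1 at 351 CPM, Gzma at 1552 CPM and Tyrobp at 776 CPM.

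Natural killer markers that the rule did not use were high in these cells. Klra8, which encodes the activating receptor Ly49H, was found at 386 CPM in the WT cells and 365 CPM in the CKO cells. Klre1, a lectin-like receptor of natural killer cells, stood at 873 and 943 CPM. Gzma, the most abundant granzyme gene here, stood at 7352 and 7128 CPM. Eomes and Tbx21, the T-box factors that set natural killer identity, stood at 305 and 339 CPM and at 137 and 125 CPM. The 20 genes listed for natural killer identity summed to 24749 CPM in WT and 23156 CPM in CKO natural killer cells, against 862 and 1003 CPM in T cells and 73 and 80 CPM in B cells. These sums include Ncr1 and Klrb1c, which the rule requires and the T and B cell gates exclude, so part of the gap was set by selection. Ncr1 and Klrb1c, which encode NKp46 and NK1.1 and which the rule used, stood at 942 and 832 CPM and at 897 and 697 CPM. Klrb1c, Klre1 and Klra8 lie together on chromosome 6 of GRCm38 (chr6:128778485-128789215, chr6:129577905-129585827 and chr6:130115226-130129898), and Ncr1 lies at chr7:4337724-4345164.

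**Figure D1:**
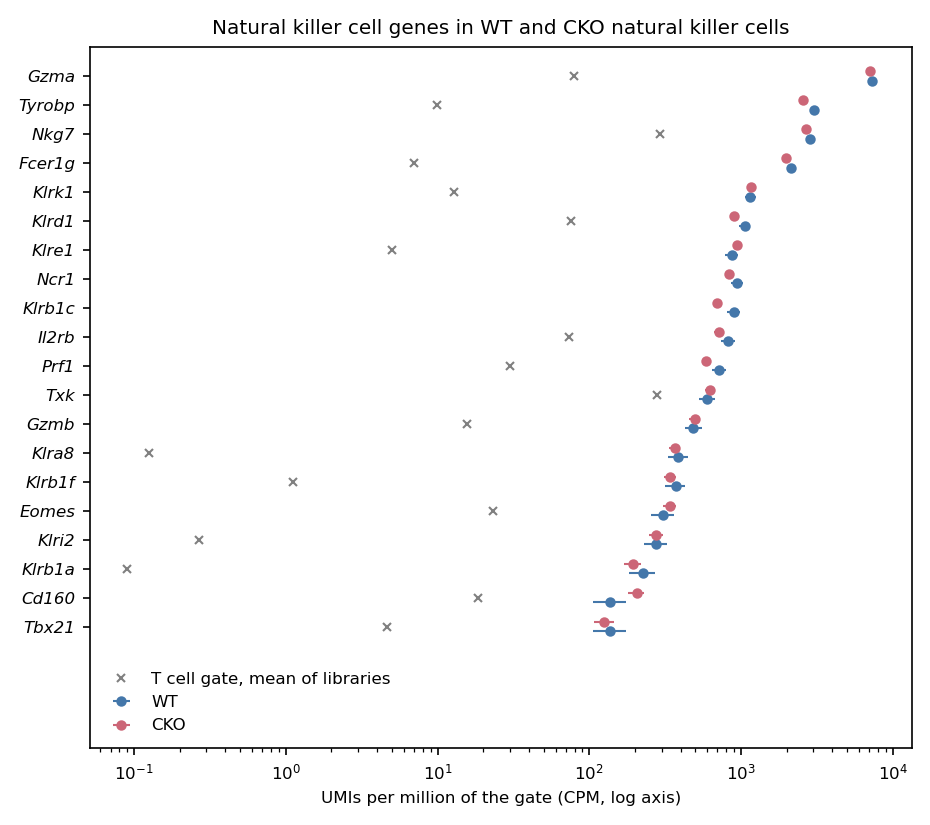
Levels (CPM, log axis) of the 20 listed natural killer identity genes in natural killer cells of WT (blue) and CKO (red) with 95% Poisson intervals for counting error, and the mean of both libraries' T cells (grey crosses; Ncr1 and Klrb1c are 0 there by the rule). The WT and CKO points lie within 1.5-fold of each other for every gene, and the T cell level lies below both.

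Markers of other classes were low but not absent. Cd3d had 33 UMIs in 11 WT cells and 32 UMIs in 18 CKO cells, or 72.0 and 24.1 CPM, and Cd3g stood at 37.1 and 36.9 CPM. Trac had 9 and 17 UMIs, Cd4 had 1 and 9, and Cd8a had 1 in each library. Transcripts of the T cell receptor constant genes Trbc1 (432 and 387 CPM), Trbc2 (262 and 301 CPM) and Trdc (87.3 and 82.9 CPM) were carried by many cells, as 62 of 78 WT cells had a Trbc1 UMI. Cells with at least 3 UMIs of Cd3d, Cd3g, Trac and Tcrg-C1 numbered 5 of 78 in WT and 15 of 219 in CKO. The 16 T cell markers summed to 1196 and 1086 CPM in natural killer cells against 8572 and 8368 CPM in T cells. They include Cd3e, which is at 0 in natural killer cells by the rule and is required of the T cells. The 15 myeloid and dendritic markers summed to 369 and 297 CPM, with S100a8 and Xcr1 at 0. The 15 B cell markers summed to 552 and 390 CPM, with Cd79a and Ms4a1 at 0 by the rule. Il1rl1, Il5, Il13, Il17a and Il22, which mark the innate lymphoid cells of groups 2 and 3, were at 0 in both libraries, where a count of 0 allows up to 6.54 CPM in WT and 2.26 CPM in CKO (3 UMIs of the total). A single WT cell with 15846 UMIs and 2 CKO cells carried many UMIs of plasmacytoid, myeloid or class II genes (Siglech, Lyz2, Csf1r, H2-Aa or Cd74), and values that rest on them are marked below.

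Rpa1 counts were too few to tell whether its level differed between the libraries in natural killer cells. It had 20 UMIs in 16 of 78 WT cells and 70 UMIs in 59 of 219 CKO cells, or 43.6 and 52.8 CPM, a ratio of 1.21 (0.727 to 2.10). In T cells the ratio was 0.660 (0.597 to 0.730), from 40.6 to 26.8 CPM, and in B cells it was 0.884 (0.798 to 0.979). Across alternatives the log2 ratio, Rpa1, ran from 0.72 with Trdc at 0 to -0.13 in the 7 WT and 34 CKO cells with no UMI of Cd3d, Cd3g, Trac, Trbc1 or Trbc2. The intervals of natural killer and T cells overlap at their ends. The UMIs come from the 3′ end of the transcript and the deleted part is not given, so these counts do not check whether the gene was deleted. Its partners Rpa2 and Rpa3 stood at 21.8 and 29.4 CPM and at 41.5 and 50.5 CPM, with ratios of 1.35 (0.660 to 3.03) and 1.22 (0.723 to 2.15).

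Most genes stood at like levels in the natural killer cells of both libraries. In CKO 35 (1.0%) of the 3494 genes that reached 50 CPM on either side were 2-fold higher or more, and 35 (1.0%) were 2-fold lower or more. Over the 5865 genes with a mean of at least 20 CPM, here called measured, the median log2 ratio of CKO to WT was -0.04, 6.00% were at least 1.5-fold higher in CKO and 9.12% at least 1.5-fold lower. These shares are the background for the gene lists that follow.

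The killing machinery was present at close levels. Of 20 listed identity genes none was 1.5-fold higher or lower, and their median log2 ratio was -0.10. Prf1, which encodes the pore former perforin, stood at 716 and 592 CPM (ratio of CKO to WT 0.827, 0.726 to 0.943). Gzmb stood at 487 and 495 CPM (1.02, 0.873 to 1.19) and Gzma at a ratio of 0.969 (0.932 to 1.01). Nkg7, a granule membrane gene, stood at 2851 and 2676 CPM. Of 20 measured cytotoxic granule genes 2 were at least 1.5-fold higher in CKO, and 2 at least 1.5-fold lower. The higher ones were Lamp1, the granule membrane protein that reaches the surface when granules fuse (74.2 and 120 CPM, ratio 1.62, 1.11 to 2.41), and Gzmm (17.5 and 26.4 CPM, 1.51, 0.689 to 3.77). The lower ones were Rab27a (0.597, 0.344 to 1.06) and Stxbp2 (0.582, 0.320 to 1.09), both needed for granule docking and release. Fasl, the ligand of the death receptor Fas, stood at 113 and 161 CPM (1.41, 1.04 to 1.95). The T cell gate of the same libraries had larger ratios for 2 of these genes, but its makeup differed: after thinning, 1.44% of WT and 12.9% of CKO cells in it had a Trdc UMI, and CD8 T cells with Ccl5 UMIs numbered 362 and 44. The part of this makeup in the pooled T cell ratios was not tested. In T cells Gzma stood at 14.6 and 144 CPM (9.89, 9.09 to 10.8), and Gzmb at 4.55 and 26.6 CPM (5.86, 4.98 to 6.90). Within the CD8 T cells with Ccl5 UMIs the ratios were 11 (9.70 to 12.4) for Gzma and 5.46 (4.26 to 6.98) for Gzmb. T cells that carried natural killer receptor UMIs (29 and 31 cells) stood between, with Gzma at 757 and 2459 CPM (3.25, 2.78 to 3.80).

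Share of cells gave the same picture for the granule genes. When each cell was thinned to 2000 UMIs, which left out 3 CKO cells that were shallower, 74.4% (63.2 to 83.6) of WT and 76.4% (70.2 to 81.9) of CKO natural killer cells had a Gzma UMI. Before thinning the shares were 78.2% and 79.0%. In B cells, which should lack the gene, 0.144% and 0.314% had a Gzma UMI after thinning, from median depths of 4053 and 3922 UMIs. Prf1 was seen in 53.8% (42.2 to 65.2) and 56.0% (49.1 to 62.7) of thinned cells. Gzmb was seen in 28.2% (18.6 to 39.5) and 42.1% (35.5 to 49.0), intervals that overlap, while its summed level was nearly equal.

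Among the measured surface receptors of the list, Slamf7 and Crtam had the highest ratios. Slamf7, an activating receptor that binds itself on neighbouring cells, had 58 UMIs in 32 of 78 WT cells and 297 UMIs in 138 of 219 CKO cells, or 127 and 224 CPM (ratio 1.77, 1.33 to 2.39). In cells thinned to 2000 UMIs, 15.4% (8.21 to 25.3) of WT and 37.0% (30.6 to 43.9) of CKO cells had a UMI, against 41.0% and 63.0% before thinning. This gap depends on the depth: with cells thinned to 1000 UMIs the shares, as percent of WT natural killer cells with a Slamf7 UMI and percent of CKO natural killer cells with a Slamf7 UMI, were 15.4% and 15.5%, and at 3000 UMIs 31.2% and 45.5%. B cells, some of which express the gene, had a UMI in 10.9% in either library. Crtam, a receptor of the nectin-like family seen on activated cytotoxic cells, had 14 UMIs in 11 WT cells and 119 in 45 CKO cells, or 30.5 and 89.7 CPM (2.94, 1.68 to 5.53), and 30 of the CKO UMIs came from 1 cell. In T cells Crtam stood at 19.3 and 13.6 CPM (0.702, 0.608 to 0.809). Of 19 measured receptors of the NKG2, CD94 and NKR-P1 families and related molecules, these were the 2 that were at least 1.5-fold higher, none was lower by as much, and the median log2 ratio was 0.00. Cd160 fell just under that limit, with a log2 ratio of 0.577. Klrk1, which encodes the activating receptor NKG2D, stood at 1152 and 1164 CPM. Klrd1 (CD94) stood at 1056 and 897 CPM and Klrc1, its inhibitory partner NKG2A, at 260 and 257 CPM. Klrc2, the activating partner, stood at 613 and 480 CPM (0.783, 0.679 to 0.904). Of 20 measured signalling genes behind these receptors, among them Tyrobp (3033 and 2577 CPM), Fcer1g (2131 and 1976 CPM) and Zap70 (56.7 and 70.1 CPM), none passed 1.5-fold in either direction, and their median log2 ratio was -0.08.

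The Ly49 receptors, encoded by the Klra genes and carried by natural killer cells in varying combinations, differed little as a group. Of 7 measured Klra genes 1 (14.3%) was at least 1.5-fold lower, against 9.12% of all measured genes, and none was higher by as much. It was Klra6 at 54.5 and 29.4 CPM (0.539, 0.318 to 0.929). The median log2 ratio of the 7 was -0.24. Klra4 (Ly49D) stood at 491 and 354 CPM (0.722, 0.614 to 0.850) and Klra7 (Ly49G) at 401 and 322 CPM (0.802, 0.673 to 0.958). Klra8, Klra9, Klra3 and Klra1 had ratios of 0.947, 0.885, 0.846 and 1.14, each with an interval that spans 1. The Klra genes are near-identical copies of each other, so the split of UMIs among them is uncertain. The number of these 7 genes seen per thinned cell averaged 1.41 in both libraries. Cells with at least 2 of them made up 42.3% (31.2 to 54.0) of WT and 45.8% (39.1 to 52.7) of CKO cells, and cells with none 38.5% (27.7 to 50.2) and 31.5% (25.3 to 38.1). Klra4 and Klra8 were seen together in 14.1% and 13.9% of cells.

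Xcl1 was the only one of 9 measured genes on the chemokine and cytokine list to differ by 1.5-fold or more. It encodes lymphotactin, the chemokine by which natural killer cells call in XCR1-positive dendritic cells, and lies at chr1:164931644-164935527. It had 286 UMIs in 44 of 78 WT cells and 1674 UMIs in 144 of 219 CKO cells, or 624 and 1262 CPM (2.02, 1.78 to 2.30). The level per cell ran from 0 through a median of 2.19 to 67.8 UMIs per 10000 in WT and from 0 through 3.68 to 161 in CKO. The top 10% of cells began at 18.3 UMIs per 10000 in WT and at 33.0 in CKO. The share of thinned cells with a UMI was 42.3% (31.2 to 54.0) in WT and 50% (43.1 to 56.9) in CKO, against 56.4% and 65.8% before thinning. B cells, as background, had a UMI in 0.108% and 0.0784%. The groups overlap widely, and the difference lay more in how many UMIs a positive cell held than in how many cells were positive. Xcl1 was also higher in CKO in cells with a Cd3e UMI and at least 2 Trdc UMIs, here called delta chain T cells (108 and 190 CPM, 1.76, 1.40 to 2.25) and in T cells (22.9 and 35.9 CPM, 1.57, 1.42 to 1.73). Delta chain T cells with at least 2 Cd3e UMIs and none of Ncr1 and Klrb1c are also counted among the T cells. The T cell gate differed in makeup, as given above, and the part of this in its Xcl1 ratio was not tested.

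The other measured members of the list were within 1.5-fold. Ccl5, the most abundant of them, stood at 10644 and 8774 CPM (0.824, 0.797 to 0.852), while in T cells it stood at 219 and 662 CPM (3.03, 2.95 to 3.11). Ccl3 stood at 240 and 320 CPM (1.33, 1.08 to 1.66), and 122 of its 425 CKO UMIs came from 1 cell. Ccl4 stood at 600 and 644 CPM and Ifng at 164 and 196 CPM (1.20, 0.923 to 1.57). The median log2 ratio of the 9 was 0.10. Csf2, a member under the measured level that encodes the growth factor GM-CSF, had 4 UMIs in 4 WT cells and 38 UMIs in 22 CKO cells (3.28, 1.18 to 12.7). The chemokine genes Cxcl10 and Ccl1, which are not on the list, had larger ratios that rest on few cells and are given with the ranked genes.

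**Figure D2:**
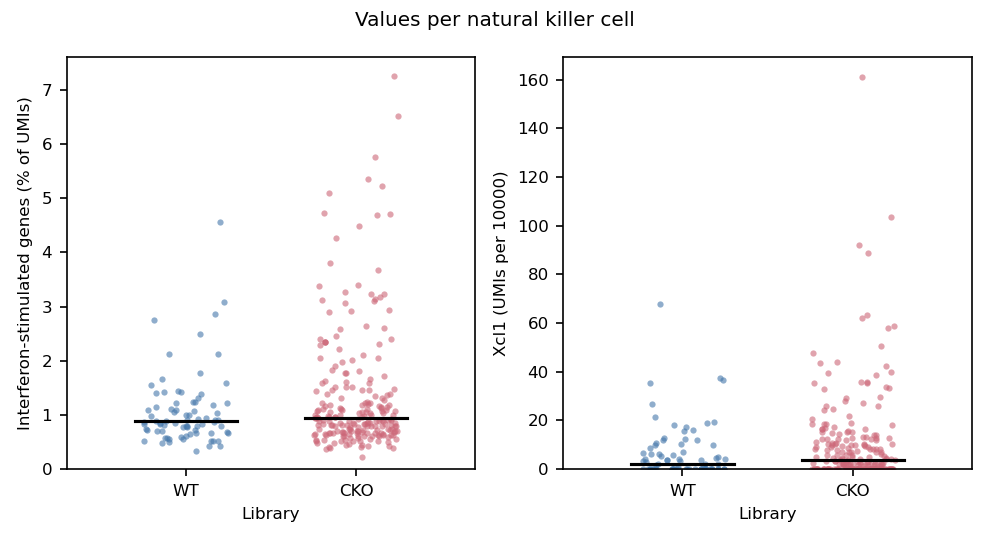
Each point is 1 natural killer cell; the left panel shows the percent of its UMIs from the listed interferon-stimulated genes and the right panel its Xcl1 UMIs per 10000, with black lines at the medians. The medians of the libraries lie close, at 0.879% and 0.951% on the left. WT has 78 points and CKO 219, so the number of high points also follows the number of cells. The top 10% of cells began at 1.69% in WT and 3.07% in CKO on the left, and at 18.3 and 33.0 on the right.

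Interferon-stimulated genes had the highest median of the lists. Of 62 measured members 28 (45.2%) were at least 1.5-fold higher in CKO natural killer cells, against 6.00% of all measured genes, and 2 (3.23%) were at least 1.5-fold lower, against 9.12%. Their median log2 ratio was 0.53. Left without the 3 cells with markers of another class, the median log2 ratio, interferon-stimulated genes, was 0.63, and without cycling cells it was 0.49. It was 0.31 over members at 100 CPM or more, and 0.08 in the 7 WT and 34 CKO cells with no UMI of Cd3d, Cd3g, Trac, Trbc1 or Trbc2. Many of these genes are switched on by interferon through a repeated GAAA element in their promoters.

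The antiviral effectors at the top of the list were sparse in WT. Isg15, a ubiquitin-like protein attached to other proteins, had 55 UMIs in 16 of 78 WT cells and 348 in 77 of 219 CKO cells, or 120 and 262 CPM (2.19, 1.64 to 2.96). Isg20, an exonuclease that degrades RNA, had 7 UMIs in 7 WT cells and 102 in 43 CKO cells, or 15.3 and 76.9 CPM (5.03, 2.36 to 12.8). Ifit3, of a family that recognises foreign RNA, stood at 48.0 and 159 CPM (3.31, 2.13 to 5.40), in 8 WT and 50 CKO cells. Ifit1 stood at 54.5 and 118 CPM (2.17, 1.42 to 3.45), Usp18, the protease that removes Isg15 and damps interferon signalling, at 34.9 and 79.1 CPM (2.27, 1.33 to 4.11), and Rsad2, which encodes viperin, at 24.0 and 54.3 CPM (2.26, 1.19 to 4.73). Ifi27l2a stood at 116 and 320 CPM (2.76, 2.07 to 3.75), with 104 of its 424 CKO UMIs in 1 cell. The Ifitm3 ratio of 3.45 rests on 7 WT UMIs that all came from 1 cell and on 39 of 70 CKO UMIs from 1 cell.

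Sensors and GTPases differed less. Zbp1, a sensor of Z-form nucleic acids, stood at 89.4 and 150 CPM (1.68, 1.19 to 2.41) and Ddx58, the RNA sensor RIG-I, at 78.5 and 124 CPM (1.58, 1.10 to 2.34). The interferon-induced GTPase Gbp7 stood at 144 and 230 CPM (1.60, 1.22 to 2.12) and Igtp at 30.5 and 60.3 CPM (1.97, 1.11 to 3.77). The factors Irf7 and Irf9, which drive these genes, had overlapping intervals, with Irf7 at 144 and 149 CPM (1.04, 0.781 to 1.39) and Irf9 at 54.5 and 83.6 CPM (1.53, 0.987 to 2.47). The receptor chains Ifnar1 and Ifnar2 had ratios of 0.928 (0.623 to 1.41) and 0.799 (0.564 to 1.15). The most abundant members, Ms4a4b (2114 and 2224 CPM) and Shisa5 (1078 and 1103 CPM), were almost level.

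The 2 lower members were Ifi208 and Ly6a. Ifi208 stood at 56.7 and 17.3 CPM (0.306, 0.167 to 0.557), while Ifi204, a related gene outside the list, had 4 UMIs in WT and 129 in 40 CKO cells, or 8.73 and 97.2 CPM (11.1, 4.25 to 41.5). Genes of this p200 family are close copies of each other, so the split between them is uncertain. Ly6a, which encodes Sca-1, had 73 UMIs in 5 WT cells and 87 in 20 CKO cells (0.412, 0.298 to 0.570). Of the WT UMIs 61 came from 1 cell, and without the highest cell of each library the ratio was 1.96.

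**Figure D3:**
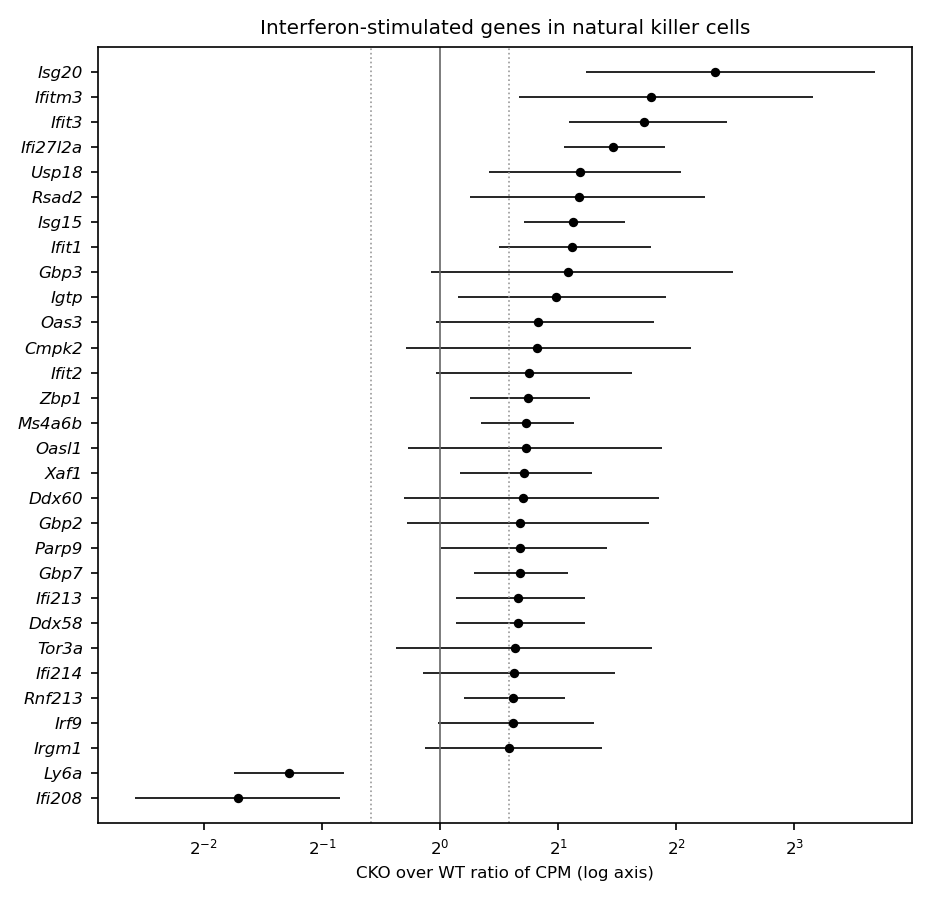
Ratio of CKO to WT level (log axis) in natural killer cells for the 30 of 62 measured interferon-stimulated genes that differed at least 1.5-fold, with exact 95% intervals for counting error; the solid line marks equal levels and the dotted lines 1.5-fold in either direction. The 28 genes right of the dotted line include Isg20, Ifit3, Usp18, Rsad2, Isg15 and Ifit1, and only Ifi208 and Ly6a lie left of the other.

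The libraries differed more in the upper tail of cells than at the median. The listed genes took 0.342% of UMIs in the lowest WT cell, 0.879% in the median cell and 4.56% in the highest, and 0.218%, 0.951% and 7.26% in CKO. The level that 10.3% of WT cells exceeded (1.69% of UMIs, 8 of 78 cells) was exceeded by 49 of 219 CKO cells, or 22.4% (17.0 to 28.5). That level was taken from the WT cells themselves, so the WT share was set in advance. Its interval of 4.53 to 19.2 is therefore not informative. The CKO interval takes the level as fixed and leaves out the error of a level drawn from 78 WT cells. The top 10% of cells began at 1.69% of UMIs in WT and at 3.07% in CKO.

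The element was looked for in the promoters, as GAAA followed after any 2 bases by GAAA, on either strand. The windows ran from 250 bases before to 50 bases after the start in RefSeq (GRCm38.p6), and overlapping matches were counted. It was found in 29 of the 51 measured list members with a window (56.9%), against 4.72% of all 4729 measured genes with a window and 3.44% of all 32851 windows. Among members at least 1.5-fold higher in CKO 15 of 23 held it, and among the rest 14 of 28, so it was common in both. Of the natural killer identity genes 2 of 16 held it, and none of the 7 measured Klra genes. The stretches below run from 170 to 51 bases before the start of 3 of the higher genes, shown because their windows hold more than 1 match, 5′ to 3′ on the gene's strand, with the matches in capitals. A match is a description of the letters and not a shown binding site.
Isg15, chr4:156200869-156200988, minus strand: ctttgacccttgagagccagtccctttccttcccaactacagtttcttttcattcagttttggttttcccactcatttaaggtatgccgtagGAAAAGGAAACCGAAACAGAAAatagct
Ifit3, chr19:34583359-34583478, plus strand: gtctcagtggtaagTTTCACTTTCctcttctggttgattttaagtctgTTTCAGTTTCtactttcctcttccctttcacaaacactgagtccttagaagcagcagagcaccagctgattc
Ifit1, chr19:34640719-34640838, plus strand: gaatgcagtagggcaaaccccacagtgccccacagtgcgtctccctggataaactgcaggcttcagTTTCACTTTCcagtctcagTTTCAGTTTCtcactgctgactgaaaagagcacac

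In Isg15 the capitals are 3 overlapping matches that begin 78, 72 and 66 bases before the start. In Ifit3 the matches begin 156 and 122 bases before the start, and in Ifit1 104 and 85, all on the opposite strand. Isg20 and Xcl1 held no match in their windows.

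Interferon-stimulated genes were also higher in CKO in most other gates. Their median log2 ratio was 0.46 in T cells, beside 0.08 over all genes measured there, and 0.52 beside 0.00 in delta chain T cells (112 and 444 cells). It was 0.85 beside 0.10 in CD8 T cells with Ccl5 UMIs (362 and 44 cells) and 0.39 beside 0.04 in B cells. In T cells with natural killer receptor UMIs it was 0.06 beside 0.04. All these values come from the same 2 libraries. By their rules the T cell gate can share cells with the delta chain and CD8 gates, so their values are not independent. Isg20 had a ratio of 5.03 (2.36 to 12.8) in natural killer cells beside 1.84 (1.75 to 1.92) in T cells. Ifit3 had 3.31 (2.13 to 5.40) beside 1.59 (1.54 to 1.65). Both are among the 15 highest ratios in natural killer cells and reached 50 CPM there in CKO alone. Their larger ratio in natural killer cells is therefore no support for a difference from T cells. The Isg15 ratio of 2.19 lay close to the 1.92 (1.88 to 1.97) of T cells.

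**Figure D4:**
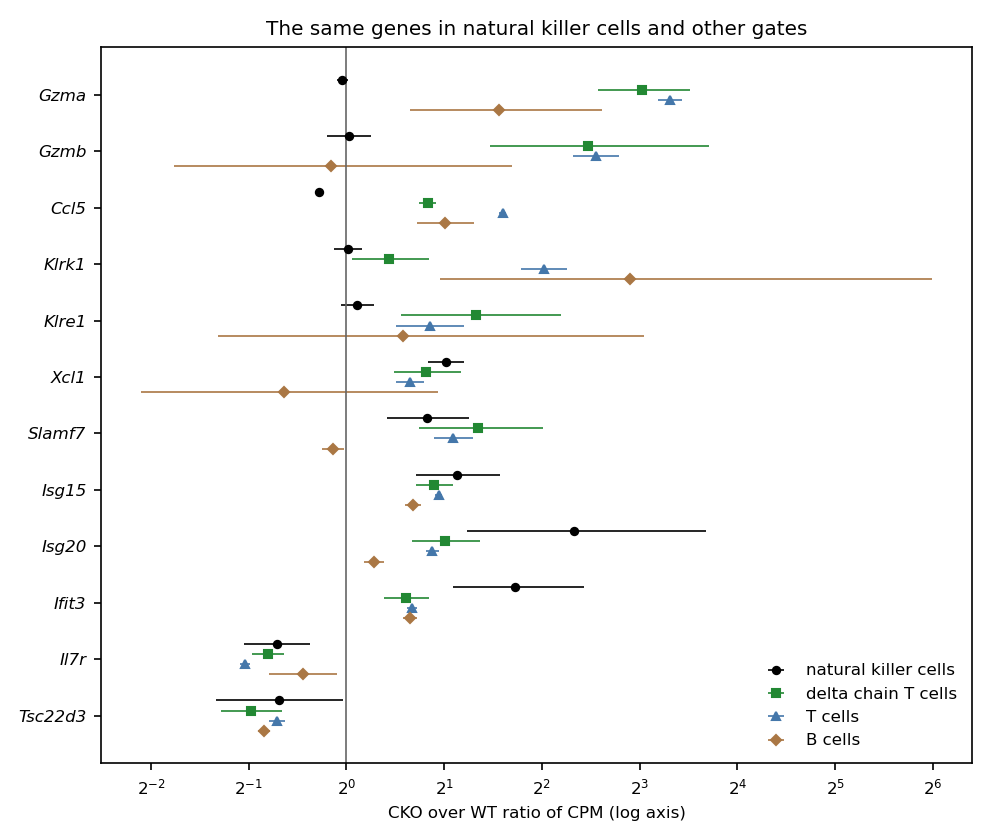
Ratio of CKO to WT level (log axis) for 12 genes in natural killer cells, delta chain T cells, T cells and B cells, with exact 95% intervals for counting error. Gzma, Gzmb, Ccl5 and Klrk1 lie near or below 1 in natural killer cells and above 1 in delta chain T cells and T cells, gates that can share cells. Isg15, Il7r and Tsc22d3 lie on the same side in all gates shown.

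Other genes at the top of the ranking rested on few cells. Cxcl10, the chemokine that draws CXCR3-positive cells, had 4 UMIs in 3 WT cells and 285 in 15 CKO cells, or 8.73 and 215 CPM (24.6, 9.51 to 90.9), with 89 in 1 cell. All 117 UMIs of the chemokine gene Ccl1 came from 1 CKO cell and none from WT, at least 13.5-fold higher against a floor of 3 UMIs in WT. Lyz2, a myeloid gene, had 70 UMIs in CKO, 60 of them in 1 cell, and none in WT. The histone genes Hist1h1b and Hist1h3c had 130 of 174 and 73 of 79 CKO UMIs in 1 cell. By contrast Pmepa1, a brake on transforming growth factor beta signalling, was spread over 41 CKO cells, with 5 UMIs in WT and 95 in CKO, or 10.9 and 71.6 CPM (6.56, 2.72 to 20.7). Cited4, a transcriptional co-regulator, had 10 UMIs in 8 WT cells and 79 in 51 CKO cells (2.73, 1.41 to 5.91). Both Pmepa1 and Cited4 passed the floor of 50 CPM in CKO alone, the library where they are high.

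Among the lower genes, Mpeg1 and Rnase6 rested on the WT cell with markers of another class, which held all 28 and all 24 of their WT UMIs. The others were low and spread over cells, each between 50.2 and 74.2 CPM in WT. All of them passed the floor of 50 CPM in WT alone, the library where they are high. Their low ratios are thus in part set by that floor. They were Zfp865 (0.255, 0.128 to 0.499), Camk2b (0.357, 0.211 to 0.604), Rb1 (0.375, 0.205 to 0.692), Irak2 (0.401, 0.227 to 0.713), Trrap (0.417, 0.258 to 0.677), Abca1 (0.419), Zfhx2 (0.421), Lncpint (0.432), Lactb (0.435), Noc3l (0.442) and Helb (0.446). Rb1 encodes the retinoblastoma protein, the brake on entry into S phase, and Helb a DNA helicase that restrains the resection of broken ends. Irak2 is a kinase of Toll-like and interleukin-1 receptor signalling.

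Maturation genes leaned neither way as a group. Of 15 measured genes of the CD27 stage 2 were at least 1.5-fold higher in CKO (Xcl1 and Cd69) and 1 lower (Il7r), with a median log2 ratio of -0.06. Of 20 measured genes of the CD11b stage 2 were higher (S1pr5 and Serpinb9b) and 1 lower (Ly6c2), with a median of -0.07. Cd27 stood at 105 and 115 CPM and Itgam, which encodes CD11b, at 146 and 134 CPM. Cd69, an early activation marker that holds cells in tissue, stood at 113 and 173 CPM (1.53, 1.13 to 2.11). S1pr5, the receptor that lets natural killer cells leave nodes, stood at 67.6 and 105 CPM (1.55, 1.04 to 2.37). Ly6c2 stood at 288 and 148 CPM (0.516, 0.411 to 0.648), but 50 of its 132 WT UMIs came from 1 cell. Without the highest cell of each library the ratio was 0.733.

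Il7r, the interleukin-7 receptor chain that marks less mature natural killer cells and innate lymphoid cells of group 1, had 118 UMIs in 24 of 78 WT cells and 208 in 42 of 219 CKO cells, or 257 and 157 CPM (0.609, 0.483 to 0.770). The same direction was seen in T cells (376 and 183 CPM, 0.487, 0.469 to 0.506). Of 13 measured markers of group 1 innate lymphoid cells 2 were higher (Xcl1 and Cd69) and 2 lower (Il7r and Rora). Cells of the rule without a UMI of Klre1 or Eomes, a set chosen after values had been seen, numbered 9 of 78 in WT and 18 of 219 in CKO. They carried more Il7r (1389 and 928 CPM) and Xcl1 (1517 and 2443 CPM) than the other natural killer cells (129 and 86.3 CPM of Il7r, 522 and 1154 CPM of Xcl1) and hardly any Gzma (42.7 and 90.1 CPM). Xcl1 was higher in CKO in both sets. Fewer counts lie behind the small sets, and no cell type is named from them.

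Factors and receptors that steer natural killer cells were mostly even. Of 25 measured transcription factors none was 1.5-fold higher in CKO and 3 were lower, Lef1 (85.1 and 42.2 CPM, 0.496, 0.324 to 0.767), Nfil3 (0.564, 0.308 to 1.06) and Rora (0.648, 0.386 to 1.11), with a median log2 ratio of -0.12. Lef1 acts in early lymphocytes and Nfil3 in the birth of the natural killer lineage. Of 21 measured cytokine and interferon receptor genes 1 was higher, Il10ra (1.68, 0.975 to 3.09), and 2 lower, Il7r and Tgfbr2 (0.656, 0.461 to 0.944), with a median of -0.19. Il2rb, the chain shared by the interleukin-2 and interleukin-15 receptors, stood at 822 and 712 CPM (0.866, 0.768 to 0.978). Of 21 measured trafficking genes 2 were higher (Cd69 and S1pr5) and 2 lower (Gpr183 and Cxcr4), with a median of -0.12.

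Cell cycle and damage genes were measured at low levels. Cells with at least 3 UMIs of Mki67, Top2a and Hist1h1b numbered 7 of 78 in WT (8.97%, 3.68 to 17.6) and 12 of 219 in CKO (5.48%, 2.86 to 9.38). Of 18 measured cycling genes Mki67 and Cenpf were at least 1.5-fold higher, and the median log2 ratio was 0.22, which turned to -0.22 in cells of 2000 to 10000 UMIs. Mki67 had 45 of its 130 CKO UMIs, and Cenpf 46 of 61, in 1 cell, and Cenpf had none in WT. Of 15 measured genes of replication protein A and DNA damage Gadd45b was higher (1.93, 0.978 to 4.25) and 3 were lower, Trp53inp1 (0.572, 0.370 to 0.897), Aen (0.604, 0.284 to 1.35) and Bbc3 (0.654, 0.366 to 1.21). The intervals of Gadd45b, Aen and Bbc3 span 1, and the median log2 ratio of the list was 0.20. Trp53, which encodes p53, stood at 168 and 121 CPM (0.718, 0.544 to 0.955). Cdkn1a, which encodes an inhibitor of the cell cycle, had 1 UMI in WT and 3 in CKO (1.04, 0.0832 to 54.4). In T cells it stood at 0.831 and 6.81 CPM (8.20, 5.70 to 12.0).

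Stress and survival genes were mixed. Of 31 measured immediate early and stress genes 3 were higher (Hsph1, Nr4a1 and Cd69) and 3 lower (Dusp1, Klf4 and Tsc22d3), with a median log2 ratio of -0.05. Dusp1, a phosphatase that ends MAP kinase signals, stood at 166 and 87.4 CPM (0.527, 0.391 to 0.714), while Fos stood at 96.0 and 100.2 CPM and Jun at 225 and 268 CPM. Tsc22d3, a gene induced by glucocorticoids, stood at 72.0 and 44.5 CPM (0.618, 0.397 to 0.976), beside ratios of 0.611 in T cells and 0.557 in B cells. The chaperone Hsph1 stood at 37.1 and 69.3 CPM (1.87, 1.11 to 3.35) and Hsp90ab1 at 1634 and 2053 CPM (1.26, 1.16 to 1.36). Of 15 measured genes of the BCL2 family and apoptosis Bcl2a1b (2.50, 1.19 to 6.07) and Bid (1.55, 0.710 to 3.87) were higher and Bbc3 lower. Bcl2 stood at 319 and 390 CPM (1.22, 1.02 to 1.48). Of 16 measured MHC class I genes H2-T22 was higher (107 and 165 CPM, 1.54, 1.13 to 2.15), and the median was 0.08. None of 13 measured glycolysis genes passed 1.5-fold, and Gapdh stood at 412 and 562 CPM (1.36, 1.16 to 1.61).

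**Figure D5:**
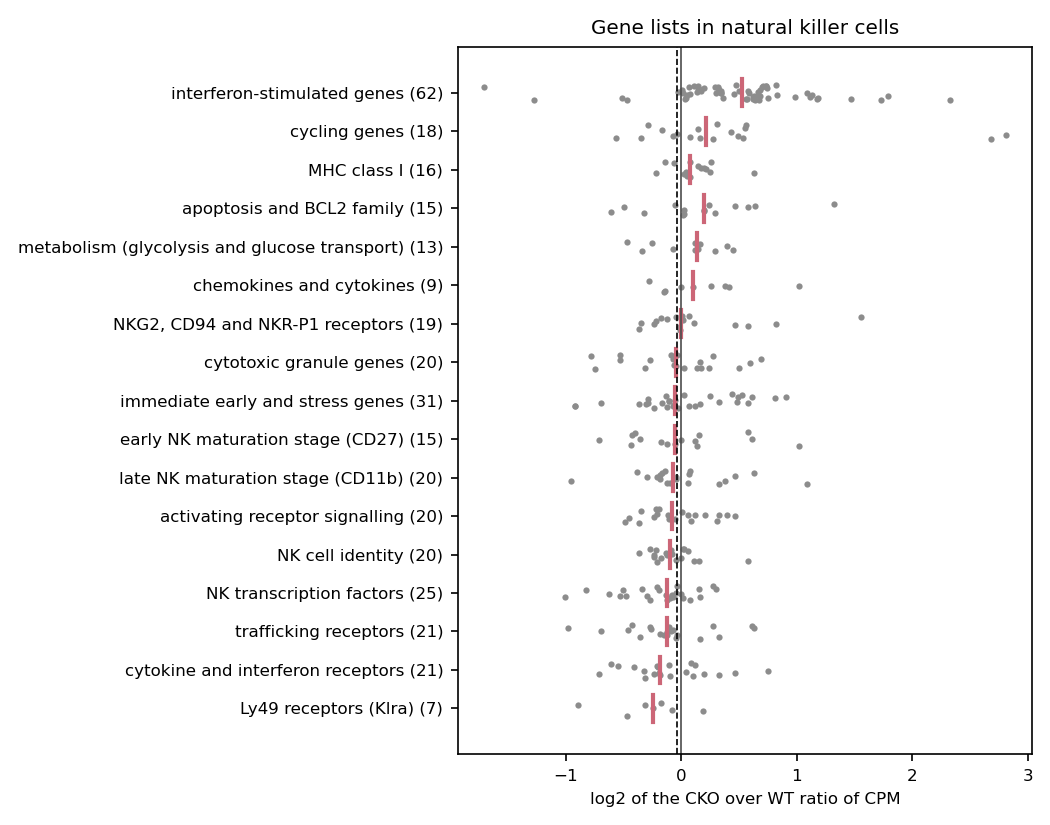
Log2 ratio of CKO to WT level in natural killer cells for the measured members (grey points) of 17 gene lists, with each list's median as a red bar, the number measured in brackets and the median of all measured genes as a dashed line at -0.04. The interferon-stimulated genes have the highest median, 0.53, and the Ly49 receptors the lowest, -0.24.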

How the data were processed

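The authors deposited filtered droplet matrices of raw UMI counts, 1 per library, with 32285 genes, made with 10x 3′ chemistry and Cell Ranger 6.0.2 per the file headers. The submitters' processing notes name Cell Ranger 5.0.0, Seurat 4.0.3 and mm10. The sources used here do not say whether doublets or free RNA were removed before deposit, and no cell annotation was used, so cells were classed by gates. From the deposited counts, the UMIs of the cells in each gate were summed per library and scaled to CPM with Python 3.11.15, NumPy 2.4.6, SciPy 1.17.1, pandas 2.3.3 and Scanpy 1.11.5. Ratio intervals are exact conditional binomial and share intervals exact Clopper-Pearson, both at 95%, and both cover counting error only. On simulated counts for 3404 genes with the depths of the natural killer cells, 94.7% of intervals held the true ratio. These counts followed the counting model of the intervals, without the clumping of UMIs in single cells seen here. The simulation thus checks the calculation and not the coverage in these data. Cells are not replicates, and no p-value was computed.

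Named genes were the 15 largest ratios in each direction at 50 CPM or more, the members of 27 fixed lists, and genes marked as chosen after values were seen. The members and the lists were chosen with earlier results of these data known. Of the gene identifiers 99.8% were found in GENCODE release 21, the source of gene positions; promoter windows came from RefSeq. Alternatives were other marker limits and exclusions, depth windows, scalings, level floors, mitochondrial limits and removal of doublets marked by Scrublet, which was not applied otherwise and marked 2 WT and 3 CKO natural killer cells. Groups were taken from the labels. Some measured genes are not reported here. The number of mice behind a library and other sources of difference between the libraries cannot be told apart from genotype.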

Additional observations from a re-analysis of the deposited data

Results flagged for a closer look

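For 12 named genes at 50 CPM or more, the ratio of CKO to WT lay on one side of 1 in natural killer cells and on the other in T cells, each with its whole counting interval, and was at least 1.5-fold in 1 of these gates. With 1 library a group, the difference between the gates was not tested. The T cell gate also differed in makeup, with a Trdc UMI in 1.44% of its WT and 12.9% of its CKO cells after thinning to 2000 UMIs, and the part of this in the T cell ratios was not tested.

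Cytotoxic lymphocyte genes were among them. Ccl5, a chemokine of killer lymphocytes, had a ratio of 0.824 in natural killer cells and 3.03 in T cells, with 1.78 in delta chain T cells and 2.69 in CD8 T cells with Ccl5 UMIs. Klrc2, which encodes an NKG2 receptor chain, had 0.783 and 5.31. Crtam went the other way, with 2.94 and 0.702. It reached 50 CPM in CKO alone, the library where it is high. Its direction in natural killer cells is therefore no support for a difference from T cells. Lgals1, which encodes galectin-1, had 0.891 and 2.32.

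Rb1 had a ratio of 0.375 in natural killer cells and 1.28 in T cells, Irak2 had 0.401 and 1.43, and Abca1, a cholesterol exporter, had 0.419 and 1.18. Helb had 0.446 and 1.16, and the p53 target Trp53inp1 had 0.572 and 1.14. The WT side of these 5 genes rests on 23 to 35 UMIs each. All 5 reached 50 CPM in WT alone, the library where they are high, so their direction in natural killer cells is no support for a difference from T cells.

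Ly6a had a ratio of 0.412 beside 1.83 in T cells, the class II gene H2-Aa 0.523 beside 1.15, and Cd74, its invariant chain, 0.54 beside 1.37. A single WT cell with markers of another class held 61 of 73 Ly6a, 31 of 37 H2-Aa and 70 of 96 Cd74 UMIs. Without the highest cell of each library the ratios in natural killer cells were 1.96, 2.19 and 1.24.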

How the results depend on the processing

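Across 20 alternatives, 5 of them chosen after seeing the data, 819 gene ratios stayed near the reported value, 58 moved and 15 reversed, and 43 had too few counts for a ratio. Of 24 shares of cells with a UMI at other thinning depths, 15 moved. Isg20, Ifit3, Slamf7 and Xcl1 were higher in CKO under every alternative that gave them a ratio. Their log2 ratios ran from 2.07 to 2.58, 1.63 to 2.05, 0.53 to 0.95 and 0.42 to 1.39. Slamf7 and Xcl1 had a ratio in 17 alternatives, but Isg20 and Ifit3 in only 16. Requiring 0 UMIs of Cd3d, Cd3g, Trac, Trbc1 and Trbc2 left 7 WT and 34 CKO cells and moved most values. There 476 genes were at least 2-fold higher and 959 lower, the shares were 0.0562% and 0.255% (ratio 4.55), the interferon-stimulated gene median was 0.078 and the cycling median -1.24. Log2 ratios that reversed there were Ccl3 -1.58, Cd160 -0.58, Cd69 -0.66, Fasl -0.46, Il7r 1.84, Irak2 0.34, Klra4 0.89, Lncpint 0.56 and Ly6a 0.63. Requiring Trdc at 0 left 54 and 144 cells, with 82 genes higher, shares of 0.433% and 1.08%, Ly6a at 1.34 and a median log2 ratio, cycling genes, of -0.059. Requiring Cd3d, Cd3g, Trac and Tcrg-C1 at 0 left 57 and 166 cells, with 85 genes lower, shares of 0.457% and 1.25% and Ccl3 at -0.087. Thinning before the rule gave a CKO share of 1.38%. A floor of 100 CPM gave 9 genes higher, 4 lower and an interferon median of 0.31. A floor of 20 CPM gave 164 and 192, and leaving ribosomal protein and mitochondrial UMIs out of the totals 66 and 54. In cells of 2000 to 10000 UMIs, Hist1h1b was -0.14, Ly6a 1.02 and the cycling median -0.22. Ly6a was 1.0 without cells with markers of another class and 0.97 without its highest cell. Depth limits genes under about 20 CPM, where WT holds fewer than 10 UMIs. No paired analysis was possible because each group has 1 library.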

Other observations

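The genes given here were chosen after their values were seen. Cd200r1, an inhibitory receptor, had 2 UMIs in 1 of 78 WT cells and 34 UMIs in 18 of 219 CKO cells. It is on the list of markers of group 1 innate lymphoid cells, and the other genes given here are outside the lists.

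The Y-linked gene Eif2s3y was measured at 103 and 9.80 CPM in WT and CKO natural killer cells, a ratio of 0.0955, and was also lower in CKO in T cells (0.264) and B cells (0.229). Its X-linked homologue Eif2s3x stood at 24.0 and 61.0 CPM (2.54). Ddx3y, another Y-linked gene, stood at 96.0 and 67.1 CPM, and Xist had no UMI in either. The sources used here do not give the sex of the mice, and the part of any such difference between the animals in the results above was not tested.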
